A study of Rattus norvegicus with 9 samples.

Results

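The genes described here encode the proteins of the cytosolic ribosome, measured as messenger RNA in rat gastrocnemius, the large calf muscle. They were chosen by symbol: a RefSeq symbol starting with Rpl or Rps and a digit, or Rplp0, Rplp1, Rplp2 or Rpsa, without the S6 kinases (Rps6k), and an expected count of at least 10 in 3 or more of 9 libraries. Of 13752 gene IDs, 92 had such a symbol and 85 reached that level. The 85 comprised 46 genes of large-subunit proteins, 31 genes of small-subunit proteins, 5 paralogs (Rpl3l, Rpl22l1, Rps27l, Rpl36al1 and Rps4y2) and 2 genes named as pseudogenes (Rpl17-ps16 and Rpl7-ps3). The last, Rps19bp1, carries the symbol of a protein that binds Rps19 and is not itself a ribosomal protein. Rpl37l1, whose symbol names it a copy of Rpl37, was counted with the large-subunit genes, and no gene with the symbol Rpl37 was among the 85. All 85 were listed in all 9 libraries and passed the filter on low counts, so none was left out of a test. Just inside the count limit, Rps4y2 had 4 to 55 counts and reached 10 in 6 libraries, and Rpl7-ps3 had 13 to 35.2 counts. The 7 outside it had highest counts of 1 to 8.97, among them Rpl39l1, a copy of Rpl39, and Rpl28l1.

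The 3 groups of muscle were compared side by side, all from male rats aged 8 weeks. DN-SM muscle came from rats with sciatic nerve injury whose left gastrocnemius was stimulated through the skin every day for 4 weeks, starting at surgery, at 25 V, 1 mA and 2 Hz with pulses of 300 ms under pentobarbital anaesthesia. DN muscle came from rats with the same labelled injury and no current. SHAM muscle came from rats with a sham operation and no current. DN and SHAM rats were also anaesthetised, shaved and fitted with the electrodes, for 10 minutes. There were 3 libraries per group; the labels do not give the kind of nerve injury, the time of collection or whether each library came from its own animal, so p-values measure the spread between these libraries. Library totals were 7926445 to 8893843 expected counts. The muscle genes Acta1 (skeletal alpha-actin) and Ckm (muscle creatine kinase) stood at 63509 to 86465 FPKM and 24150 to 31811 FPKM over the 9 libraries. Of 14 genes on a list for muscle fibre 13 were measured, and none of these was at 0 in all libraries.

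A ribosome is built from ribosomal RNA and one copy of most ribosomal proteins, a small subunit that reads the messenger RNA and a large subunit that joins the amino acids. Because the proteins are needed in fixed proportions, their genes are usually expressed together, and their messenger RNAs begin with a run of pyrimidines, the 5′ terminal oligopyrimidine tract, through which the kinase mTOR controls their translation. In striated muscle of mouse and human the large-subunit protein Rpl3 can be replaced by its paralog Rpl3l, which is made mainly in heart and skeletal muscle. The measurements here are of messenger RNA only, and in whole muscle fewer cells of a type and less RNA per cell cannot be told apart.

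The starts of 8 genes that the results turn on are shown first, because the pyrimidine run at the start is a sequence feature that the choice by symbol did not use. Each line gives 20 bases before the annotated start and 20 bases from it, 5′ to 3′ on the strand of the gene, from RefSeq (build GRCr8), with the unbroken run of C and T from the start in capitals. Rplp0 lies at chr12:46718371-46718410 (-), Rplp1 at chr8:71290853-71290892 (-), Rps26 at chr7:1643385-1643424 (-), Rpl3 at chr7:113507971-113508010 (-), Rpl5 at chr14:1995206-1995245 (-), Rps4x at chrX:71342902-71342941 (-), Rps4y2 at chr4:183000893-183000932 (+) and Rpl3l at chr10:14258426-14258465 (+).
Rplp0: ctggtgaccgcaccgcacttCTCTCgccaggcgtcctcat
Rplp1: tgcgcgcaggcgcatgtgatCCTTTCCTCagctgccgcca
Rps26: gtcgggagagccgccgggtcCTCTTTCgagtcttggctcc
Rpl3: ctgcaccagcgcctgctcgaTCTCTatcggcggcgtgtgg
Rpl5: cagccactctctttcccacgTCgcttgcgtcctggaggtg
Rps4x: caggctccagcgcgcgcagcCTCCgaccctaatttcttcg
Rps4y2: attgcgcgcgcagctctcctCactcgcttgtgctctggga
Rpl3l: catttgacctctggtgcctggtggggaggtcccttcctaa

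Rplp0, Rplp1 and Rps26 start with a C and at least 4 further pyrimidines, and the muscle paralog Rpl3l starts with a G and has no run. Of the 85 genes, 67 had an entry in the RefSeq promoter table, and 23 of them (34.3%) had such a start: a C followed by at least 4 bases that are each C or T, read on the strand of the gene, at the first start listed for it. The same held for 233 of 8297 tested genes (2.81%) and 722 of all 27457 genes of the table (2.63%). All 23 were among the 61 genes of the large and small subunit with an entry. With the start allowed to lie within 10 bases on either side, 49 of the 67 genes (73.1%) held the motif, against 28.7% of the tested genes. The annotated starts, not measured ones, set these shares, and Rpl5 and Rpl3 hold a T at the annotated first base.

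Levels of these messenger RNAs were high and spread over a limited range. Levels are given as the authors' FPKM, fragments scaled to transcript length and to the fragments of the library, which can be compared between genes. The 77 genes of the large and small subunit averaged 55.9 to 1016 FPKM over the 9 libraries, with a median of 315 FPKM, against a median of 5.72 FPKM over all genes tested. Of the 77, 74 were at 100 FPKM or more and 62 lay within 2-fold of the median. The most abundant were Rplp0, the base of the stalk that recruits elongation factors, at a mean of 1016 FPKM, Rps2 of the small subunit at 964 FPKM, Rplp1 of the stalk at 747 FPKM and Rps29 of the small subunit at 736 FPKM. At the other end of the order, Rpl3 had the lowest mean of the 77 genes, 55.9 FPKM, and Rpl36a the next, 96.4 FPKM. Of the 76 neighbouring pairs in this order, Rpl36a and Rpl3 were the only pair whose ranges over the 9 libraries did not overlap. Ranges leave out that both genes of a pair were measured in the same libraries, so overlap does not show equal levels. Rplp0, for example, was above Rps2 in every library.

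**Figure D1:**
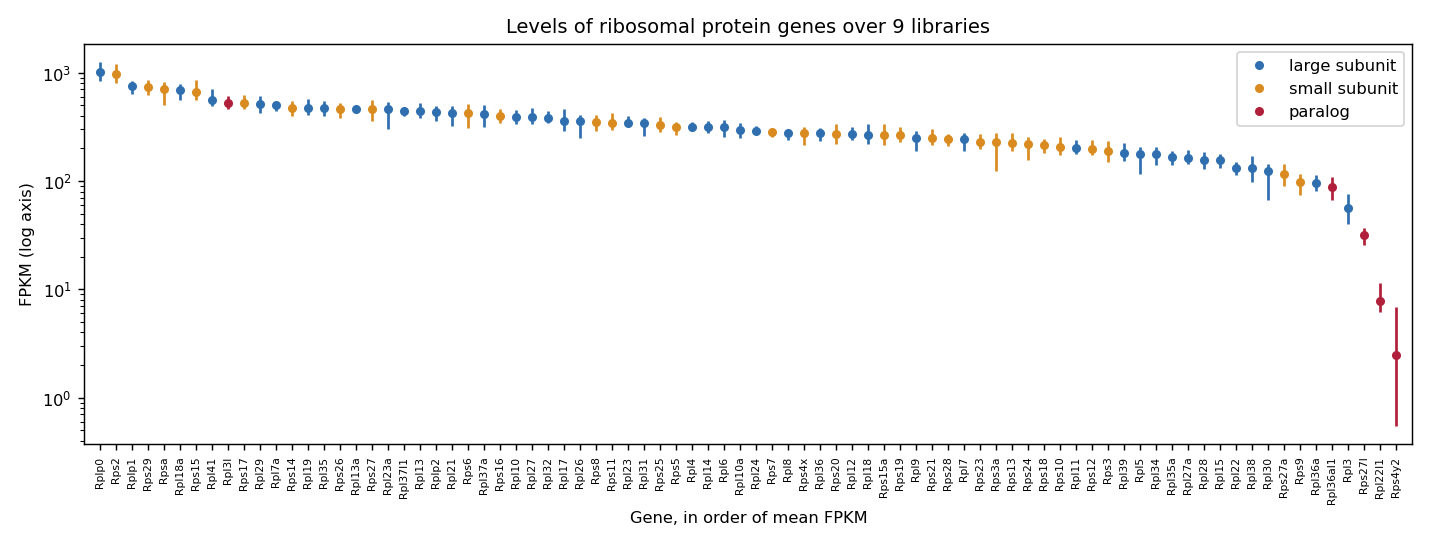
Mean level over 9 libraries (points, FPKM, log axis) and lowest to highest library (lines) of the large-subunit, small-subunit and paralog genes, in order of the mean. Most genes lie between 100 and 1016 FPKM; Rpl3l stands among the abundant genes and Rpl3 at the low end.

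Rpl3 carried the only call among the 85 genes in any comparison. Rpl3 (gene ID 300079) is the large-subunit protein next to the site where peptide bonds form. Its FPKM was 50.6, 57.0 and 52.4 in DN-SM, 61.6, 67.0 and 76.0 in DN, and 46.9, 39.9 and 51.6 in SHAM. All 3 DN libraries were above all DN-SM and SHAM libraries, while DN-SM and SHAM overlapped. Rpl3 rose in DN against SHAM, with a log2 fold change of 0.49 (SE 0.117, 95% interval 0.23 to 0.74, adjusted p = 0.0403 by edgeR's quasi-likelihood test with Benjamini-Hochberg adjustment over 10129 genes). In DN-SM against DN it was -0.26 (SE 0.117, adjusted p = 0.280), and in DN-SM against SHAM 0.23 (SE 0.118, adjusted p = 0.446). The call in DN against SHAM lay close to the threshold: Rpl3 passed in 11 of the 26 fits run, and without a single library its log2 fold change was 0.42 to 0.60, with the call kept only without SHAM replicate 3.

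The paralog Rpl3l (gene ID 287122) was 8.31 to 11.7 times as abundant as Rpl3 in the group means. Its FPKM was 464, 493 and 497 in DN-SM, 607, 524 and 570 in DN, and 549, 508 and 563 in SHAM. DN and SHAM overlapped, and all 3 DN-SM libraries were below all DN libraries. Its log2 fold change was -0.0021 in DN against SHAM (SE 0.115, 95% interval -0.25 to 0.25), -0.13 in DN-SM against DN (SE 0.116) and -0.14 in DN-SM against SHAM (SE 0.116), with adjusted p of 0.994, 0.556 and 0.660; the sign of the first, at 0 within its error, turned with the scaling, and the second was -0.04 without DN replicate 1. Rpl3l ranked 9 among the 85 genes by mean level. Rpl3 made up 9.92% ± 0.425 of the summed FPKM of the pair in DN-SM, 10.8% ± 1.37 in DN and 7.85% ± 0.548 in SHAM (SD, n = 3 each). DN and DN-SM were each above SHAM in every library, with an exact permutation p of 0.1 (two-sided), the smallest that 3 against 3 libraries can give, and p was 0.4 for DN-SM against DN; the 15 such tests over 5 pairs therefore could not reach 0.05, with or without adjustment.

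**Figure D2:**
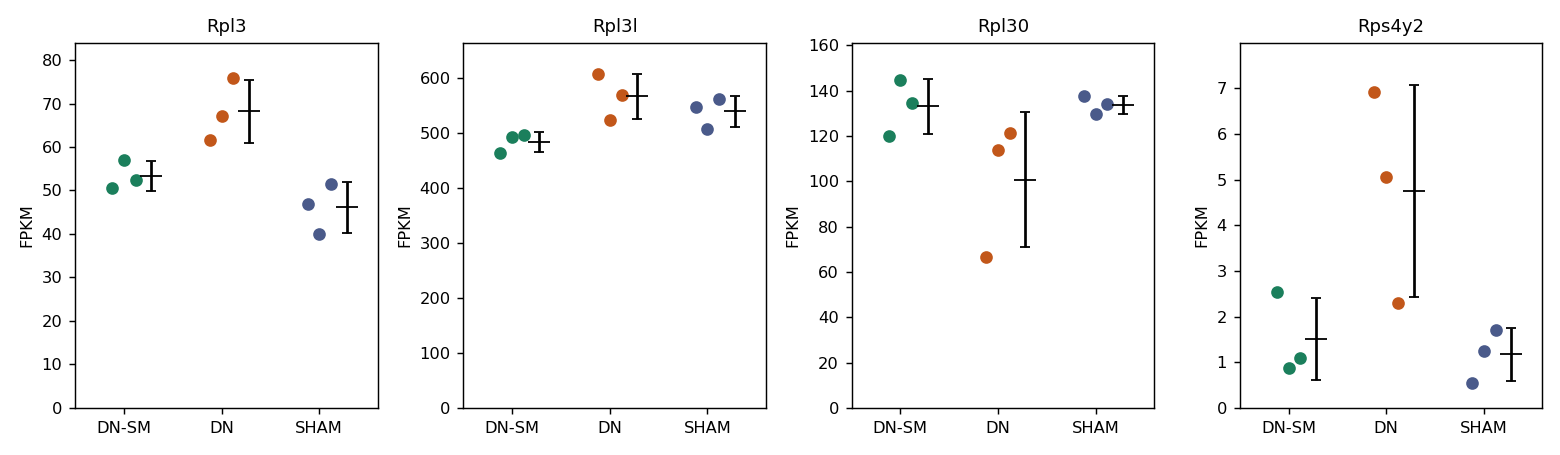
FPKM of Rpl3, Rpl3l, Rpl30 and Rps4y2 in each library (points) with the mean and SD of the 3 libraries of a group (bars), from DN-SM at the left to SHAM at the right. Rpl3 and Rps4y2 were higher in all DN libraries than in all SHAM libraries, Rpl3l overlapped between DN and SHAM, and DN replicate 1 had the lowest Rpl30, 66.8 FPKM.

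In the other paralog pairs no gene passed the test in any comparison. Rps4y2, a gene of chromosome 4 whose symbol names it a copy of the small-subunit gene Rps4x, was near the low end of detection: 2.53, 0.88 and 1.10 FPKM in DN-SM, 6.92, 5.05 and 2.30 FPKM in DN, and 0.55, 1.25 and 1.71 FPKM in SHAM. The DN libraries were above all SHAM libraries and overlapped DN-SM. Its log2 fold change was 1.92 (SE 0.544, adjusted p = 0.0705) in DN against SHAM and -1.57 (SE 0.526, adjusted p = 0.193) in DN-SM against DN; without SHAM replicate 3 it passed the first, at 2.31 (adjusted p = 0.0472), and without DN replicate 1 these were 1.503 (adjusted p = 0.205) and -1.15 (adjusted p = 0.430). Rps4x itself was at 254, 291 and 278 FPKM in DN-SM, 217, 303 and 317 FPKM in DN, and 273, 258 and 297 FPKM in SHAM. Rps4x was 98.2% to 99.6% of the pair as a mean of each group, and the similarity of the sequences makes the split of reads between them uncertain.

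Rpl22, a large-subunit protein that also binds other RNAs, was at 114, 119 and 140 FPKM in DN-SM, 128, 148 and 150 FPKM in DN, and 127, 141 and 133 FPKM in SHAM. Its paralog Rpl22l1 was at 8.37, 7.49 and 6.96 FPKM in DN-SM, 6.83, 11.4 and 8.66 FPKM in DN, and 7.22, 7.62 and 6.22 FPKM in SHAM, with a log2 fold change of 0.27 in DN against SHAM (SE 0.246, adjusted p = 0.557). The groups overlapped for both genes, and Rpl22 made up 94.2% ± 1.06, 94.1% ± 1.11 and 95.01% ± 0.467 of the pair in DN-SM, DN and SHAM (SD, n = 3 each).

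Rps27 of the small subunit was at 447, 359 and 469 FPKM in DN-SM, 478, 496 and 555 FPKM in DN, and 523, 392 and 452 FPKM in SHAM. Rps27l, a paralog that is induced by p53 in human cells, was at 30.4, 37.0 and 25.5 FPKM in DN-SM, 34.0, 32.3 and 36.9 FPKM in DN, and 27.95, 30.9 and 31.1 FPKM in SHAM, a log2 fold change of 0.12 in DN against SHAM (SE 0.164, adjusted p = 0.722). The 3 groups held near the same proportions of this pair, with Rps27 at 93.1% ± 2.15 in DN-SM, 93.7% ± 0.273 in DN and 93.7% ± 1.12 in SHAM (SD, n = 3 each).

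Rpl36a and Rpl36al1 encode near-identical proteins of the large subunit and were about equally abundant. Rpl36a was at 92.1, 81.3 and 104 FPKM in DN-SM, 96.6, 105 and 114 FPKM in DN, and 93.2, 91.5 and 89.8 FPKM in SHAM, a log2 fold change of 0.12 in DN against SHAM (SE 0.118, adjusted p = 0.590). Rpl36al1 was at 92.5, 88.1 and 86.2 FPKM in DN-SM, 67.0, 90.1 and 88.4 FPKM in DN, and 89.9, 79.8 and 109 FPKM in SHAM, a log2 fold change of -0.26 (SE 0.148, adjusted p = 0.315). The share of Rpl36a in the pair was 50.9% ± 3.49 in DN-SM, 56.4% ± 2.68 in DN and 49.8% ± 4.22 in SHAM (SD, n = 3 each), with no overlap between DN and SHAM (exact permutation p = 0.1, two-sided, the smallest possible). The paralogs Rpl7l1 and Rpl10l were not among the listed genes, and of their partners Rpl7 ranged over 189 to 279 FPKM and Rpl10, which joins the large subunit late in assembly, over 338 to 448 FPKM. Rpl39, which lines the exit tunnel of the large subunit, was at 153, 169 and 191 FPKM in DN-SM, 226, 183 and 218 FPKM in DN, and 182, 157 and 171 FPKM in SHAM (log2 fold change 0.23 in DN against SHAM, SE 0.124, adjusted p = 0.302, and 0.125 without DN replicate 1).

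Across the 85 genes, the comparison of DN with SHAM, which asks what nerve injury without stimulation changed, gave 1 gene higher (Rpl3) and 0 lower. Over all genes tested, 2.57% were called higher and 1.70% lower, 4.26% in all (432 genes). This share was 1.10% without DN replicate 1 and 1.57% with only the 2 groups compared. Over all fits without 1 library it ran between 0.564% (without DN replicate 3) and 11.5% (without SHAM replicate 3). DESeq2 called 1 of the 84 members with an adjusted p, Rpl3, against 9.01% of all 8412 genes with one. The median log2 fold change of the 85 genes was 0.11, against -0.01 over all 10129 genes, and 59 of the 85 were above 0, against 48.7% of all genes tested. At an unadjusted p under 0.05 by edgeR there were 6 of the 85 (5 higher and 1 lower), against 22.3% of all genes tested. The 46 large-subunit genes had a median of 0.07 (range -0.50 to 0.49) and the 31 small-subunit genes a median of 0.13 (range -0.26 to 0.26). For 18 of the 85 genes every DN library was above every SHAM library in log2 CPM, and for 2, Rpl30 and Rpl10, every DN library was below; over all genes these shares were 14.1% and 10.1%. The 95% interval of the fold change lay within 1.5-fold in either direction for 77 of the 85 genes. All 85 transcripts were shorter than the median of the listed genes (566 against 2098 bases as medians). Once a smooth trend of the fold change with transcript length was removed the median of the 85 was 0.03, against -0.02 over all genes. Then 50 of the 85 were above 0 and 0 called, against 47.4% above 0 and 4.1% called over all genes. With DN replicate 1 also left out the median was -0.009.

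DN-SM against DN, which asks what stimulation of injured muscle changed, gave 0 calls among the 85 genes in either direction by edgeR, and 1 call in all 10129 genes (0.00987%). With only the 2 groups compared, 716 of 9934 genes (7.21%) were called. Without 1 library 0 to 416 genes were called, 416 without SHAM replicate 3 and 339 without SHAM replicate 2. In these fits 0 of the 85 were called. At an unadjusted p under 0.05 there were 12 of the 85 (3 higher and 9 lower), against 17.6% of all genes tested. DESeq2 had 10 of the 85 at an unadjusted p under 0.05. It called 0 of the 82 members with an adjusted p, against 2.82% of all 7614 genes with one. The median log2 fold change was -0.07, against -0.01 over all genes, and -0.03 against -0.04 once the length trend was removed. Before that removal 58 of the 85 were below 0 and 27 above, against 48.7% of all genes above 0. For 15 genes every DN-SM library was below every DN library, and for 6 above; over all genes these shares were 13.3% and 17.0%. The interval lay within 1.5-fold for 76 genes.

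DN-SM against SHAM gave 0 calls among the 85 genes by edgeR, against 0.839% of all genes tested (0.415% higher and 0.425% lower), and 2 genes at an unadjusted p under 0.05, against 12.8% of all genes. DESeq2 had 2 of the 85 at an unadjusted p under 0.05. It called 0 of the 84 members with an adjusted p, against 2.98% of all 8679 genes with one. The median log2 fold change was 0.03, against 0.02 over all genes, and the interval lay within 1.5-fold for 79 of the 85. For 14 genes every DN-SM library was above every SHAM library, and for 3 below; over all genes these shares were 9.36% and 8.98%. Each group enters 2 of the 3 comparisons, so the 3 sets of values share libraries.

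**Figure D3:**
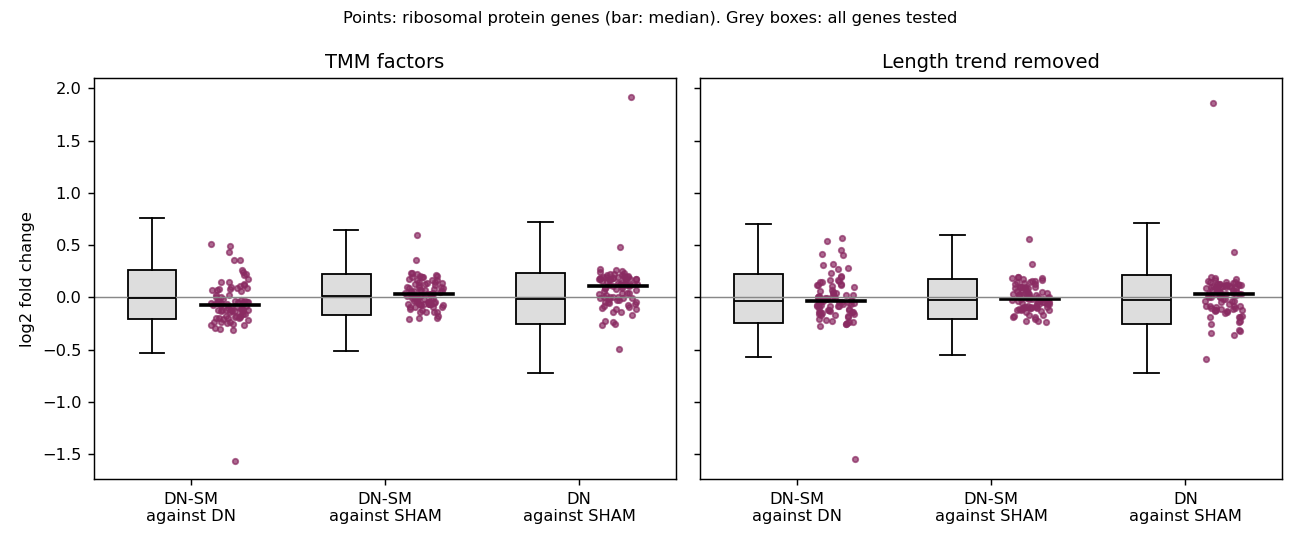
Log2 fold changes of the 85 genes (points, with a bar at their median) beside those of all 10129 genes tested (boxes from the lower to the upper quartile with the median, whiskers at the 5th and 95th percentiles), with the usual scaling at the left and with the length trend removed at the right. The points lie close to 0 in all 3 comparisons, Rps4y2 stands apart at 1.92 in DN against SHAM, and the median of 0.11 there comes to 0.03 at the right.

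The stalk of the large subunit is formed by Rplp0, Rplp1 and Rplp2, which bind the elongation factors. Rplp0 was at 845, 900 and 1010 FPKM in DN-SM, 1252, 1083 and 1129 FPKM in DN, and 1060, 843 and 1024 FPKM in SHAM. Rplp2 was at 357, 390 and 440 FPKM in DN-SM, 487, 487 and 491 FPKM in DN, and 455, 380 and 425 FPKM in SHAM. For both, all DN libraries were above all DN-SM and SHAM libraries on the FPKM scale. In log2 CPM, DN overlapped DN-SM and SHAM for both genes. After scaling, Rplp0 had a log2 fold change of 0.18 (SE 0.128, adjusted p = 0.448) in DN against SHAM and -0.24 (SE 0.128, adjusted p = 0.344) in DN-SM against DN, and Rplp2 had 0.15 (SE 0.105, adjusted p = 0.436) and -0.21 (SE 0.105, adjusted p = 0.310). Without DN replicate 1, its highest library, Rplp0 came to 0.07 and -0.14. Rplp1 was at 641, 662 and 728 FPKM in DN-SM, 714, 782 and 826 FPKM in DN, and 806, 734 and 831 FPKM in SHAM. On the FPKM scale all its DN-SM values were below all SHAM values, while DN-SM and SHAM overlapped in log2 CPM. Its log2 fold changes were -0.11 in DN against SHAM (SE 0.104, adjusted p = 0.585), -0.10 in DN-SM against DN (SE 0.104, adjusted p = 0.653) and -0.20 in DN-SM against SHAM (SE 0.104, adjusted p = 0.446).

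Of the small subunit, Rps2, at the entry of the messenger RNA channel, was at 839, 890 and 947 FPKM in DN-SM, 1211, 1000 and 1061 FPKM in DN, and 977, 803 and 948 FPKM in SHAM. Its DN libraries were the highest on the FPKM scale, while in log2 CPM DN overlapped DN-SM and SHAM. The log2 fold changes of Rps2 were 0.20 in DN against SHAM (SE 0.125, adjusted p = 0.386) and -0.20 in DN-SM against DN (SE 0.125, adjusted p = 0.414). Without DN replicate 1, the highest library of Rps2, these were 0.07 and -0.07. Rpsa, which in other settings is also known as a laminin receptor, was at 633, 695 and 671 FPKM in DN-SM, 818, 812 and 808 FPKM in DN, and 687, 508 and 748 FPKM in SHAM. On the FPKM scale the 3 DN libraries of Rpsa were close together and above the rest, while SHAM spread widely. In log2 CPM DN and SHAM overlapped. The log2 fold change of Rpsa was 0.26 in DN against SHAM (SE 0.133, adjusted p = 0.276) and -0.19 in DN-SM against DN (SE 0.133, adjusted p = 0.455). Rps29 was at 643, 735 and 774 FPKM in DN-SM, 668, 865 and 855 FPKM in DN, and 797, 665 and 624 FPKM in SHAM, with overlap between all groups (log2 fold change 0.12 in DN against SHAM, SE 0.114, adjusted p = 0.566).

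Rps26, which touches the messenger RNA near the exit of the channel, had the smallest p of the 85 genes in DN-SM against SHAM. It was at 475, 491 and 460 FPKM in DN-SM, 496, 503 and 525 FPKM in DN, and 449, 385 and 413 FPKM in SHAM. Both groups with nerve injury were above SHAM in every library, with a log2 fold change of 0.22 in each comparison with SHAM (SE 0.0912 for each) and adjusted p of 0.185 in DN and 0.336 in DN-SM. Rps9 of the small subunit, the next by p, was at 95.4, 106 and 101 FPKM in DN-SM, 104, 98.02 and 116 FPKM in DN, and 102, 73.8 and 86.9 FPKM in SHAM. Its log2 fold changes were 0.21 in DN against SHAM (SE 0.105, adjusted p = 0.271) and 0.23 in DN-SM against SHAM (SE 0.105, adjusted p = 0.385), so neither gene passed.

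DN replicate 1 stood apart from the other libraries within these genes. Its log2 CPM minus the mean of DN replicates 2 and 3 had an SD of 0.335 over the 85 genes, against 0.14 to 0.273 for the same quantity in the other 8 libraries. Over the 1762 genes of similar or higher level the SD was 0.272 in DN replicate 1, and 0.184 to 0.395 in the others. DN replicate 1 was the lowest of the 9 libraries for 22 of the 85 genes and the highest for 24; over all genes tested it was the lowest for 15.0% and the highest for 14.0%. For 23 genes it lay more than 0.3 (log2 CPM) below the other DN libraries, by 0.94 for Rps3a, 0.71 for Rpl30, 0.70 for Rpl23a, 0.63 for Rps6, 0.60 for Rpl38, 0.56 for Rpl26 and 0.53 for Rpl5. For 4 genes, Rps4y2, Rpl12, Rps2 and Rps15, it lay more than 0.3 above. The difference did not follow transcript length among the 85 (Spearman's rho 0.12 over the 85 genes, which share the libraries). SHAM replicate 1 was the lowest of the 9 libraries for 28 genes and the highest for 0, against 10.6% and 7.8% of all genes tested.

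**Figure D4:**
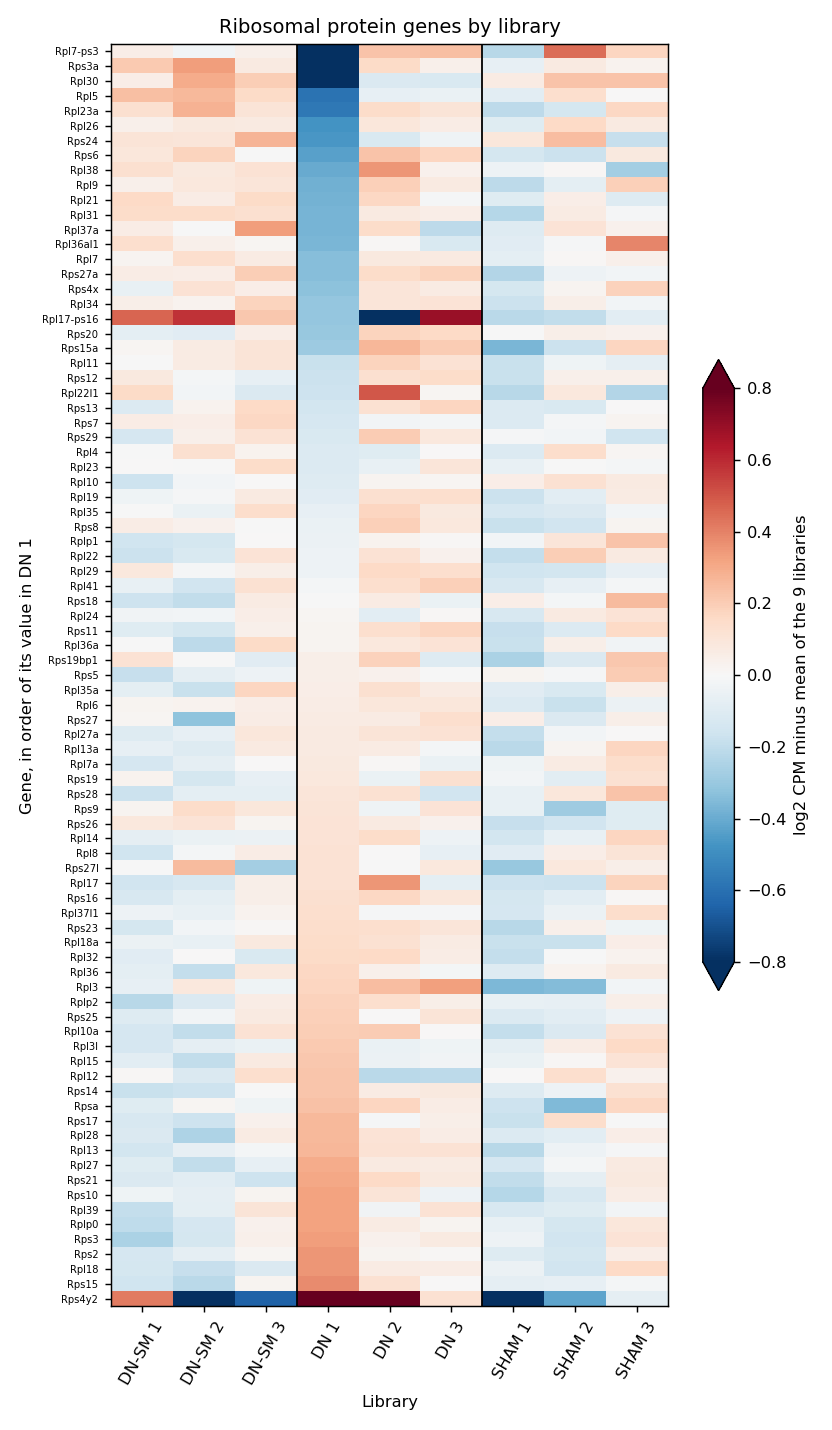
Log2 CPM of each of the 85 genes (rows) in each library (columns, DN-SM at the left, then DN, then SHAM) minus the mean of the 9 libraries, with blue below and red above the mean and colours capped at 0.8 in either direction. Rows are in order of DN replicate 1, which is lowest of the 9 libraries for 22 genes and highest for 24; no other library has both ends of the scale so filled.

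Rpl5 and Rpl30 had the smallest p in DN-SM against DN, and both were low in DN replicate 1; the next, Rps4y2, was high there. Rpl30 of the large subunit was at 120, 144 and 135 FPKM in DN-SM, 66.8, 114 and 121 FPKM in DN, and 138, 130 and 134 FPKM in SHAM. All DN libraries were below all SHAM libraries, with DN replicate 1 the lowest of the 9. Its log2 fold change was -0.50 in DN against SHAM (SE 0.169, adjusted p = 0.112) and 0.51 in DN-SM against DN (SE 0.169, adjusted p = 0.190), and without DN replicate 1 these were -0.30 (adjusted p = 0.215) and 0.31 (adjusted p = 0.379). Rpl5, which with Rpl11 and 5S ribosomal RNA forms a complex that can bind the p53 regulator Mdm2, was at 202, 208 and 192 FPKM in DN-SM, 117, 174 and 189 FPKM in DN, and 184, 180 and 169 FPKM in SHAM. Every DN-SM library was above every other library. Its log2 fold change was 0.43 in DN-SM against DN (SE 0.139, adjusted p = 0.184) and -0.24 in DN against SHAM (SE 0.138, adjusted p = 0.337), and without DN replicate 1 these were 0.28 (adjusted p = 0.379) and -0.08 (adjusted p = 0.719).

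Rps6, the small-subunit protein that S6 kinase phosphorylates, was at 429, 464 and 407 FPKM in DN-SM, 307, 503 and 518 FPKM in DN, and 417, 343 and 420 FPKM in SHAM. DN held both the lowest and the highest libraries, and the log2 fold change in DN against SHAM was 0.09 (SE 0.157, adjusted p = 0.778), 0.27 without DN replicate 1 and -0.03 without DN replicate 2.

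Together the 85 genes made up 3.92%, 4.02% and 4.25% of the summed FPKM of all listed genes in DN-SM, 4.25%, 4.55% and 4.73% in DN, and 4.39%, 3.93% and 4.26% in SHAM. The means were 4.06% ± 0.172 in DN-SM, 4.51% ± 0.242 in DN and 4.19% ± 0.233 in SHAM (SD, n = 3 each). DN-SM and DN met at 4.25%, and DN overlapped SHAM. With the 20 most abundant other genes left out of the total, DN was at 7.66% ± 0.188, above DN-SM at 7.28% ± 0.107 and SHAM at 7.21% ± 0.174, without overlap between DN and either group. Within the 77 genes of the subunits, the large subunit held 59.2% ± 0.283 of the summed FPKM in DN-SM, 58.3% ± 0.403 in DN and 59.2% ± 0.508 in SHAM. The 3 DN libraries (57.9% to 58.7%) were below all others, but narrowly: DN replicate 2 was at 58.651% and SHAM replicate 1 at 58.676%. The lowest share, 57.855%, was that of DN replicate 1. These sums were not tested.

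**Figure D5:**
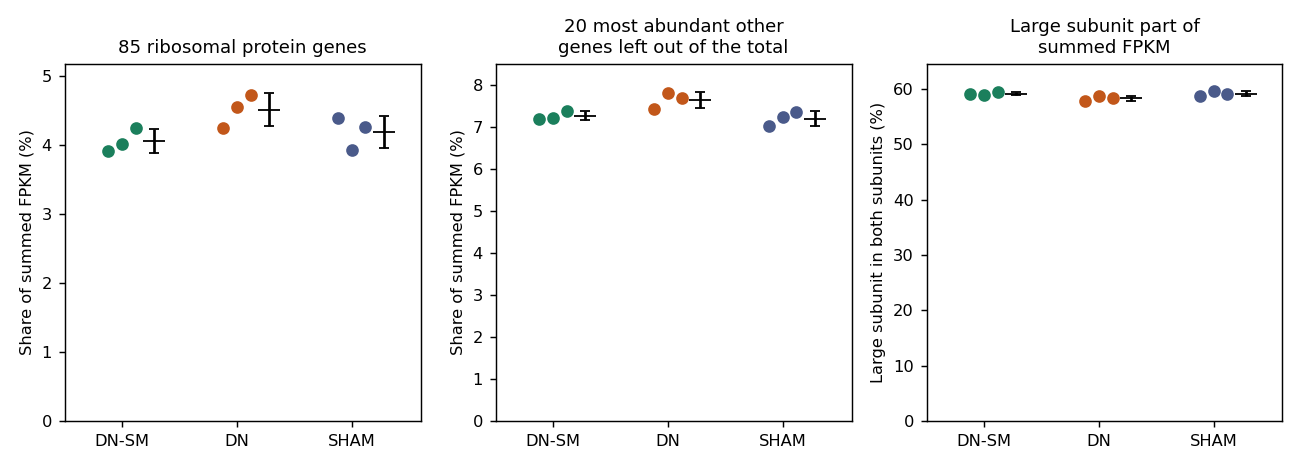
Share of the summed FPKM held by the 85 genes, the same with the 20 most abundant other genes left out of the total, and the part of the large subunit in the summed FPKM of both subunits, for each library (points, all in percent) with mean and SD of 3 libraries (bars). DN is highest in the middle plot and lowest in the right one, by less than 1 percentage point in each.

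Genes around the ribosome, on lists written for this work, are read against the 2.57% of all genes called higher and 1.70% called lower in DN against SHAM, and 0.415% and 0.425% in DN-SM against SHAM. Rack1, a scaffold on the small subunit, was at 290, 318 and 326 FPKM in DN-SM, 421, 355 and 360 FPKM in DN, and 378, 335 and 368 FPKM in SHAM. Fau, whose product is a small-subunit protein joined to a relative of ubiquitin, was at 306, 317 and 354 FPKM in DN-SM, 340, 372 and 391 FPKM in DN, and 372, 309 and 361 FPKM in SHAM. Neither gene passed the test in any of the 3 comparisons. Of 40 initiation factors 0 rose and 1 fell in DN against SHAM. It was Eif4g3, a scaffold of the cap-binding complex, at 8.99, 8.64 and 9.67 FPKM in DN-SM, 7.16, 6.59 and 7.04 FPKM in DN, and 12.8, 12.7 and 8.86 FPKM in SHAM (log2 fold change -0.79, SE 0.141, adjusted p = 0.0136). Of 12 genes on a list of elongation factors, the kinase gene Eef2k and messenger RNAs with a pyrimidine tract, 1 rose and 0 fell in DN against SHAM. It was Eef1a1, the factor that brings aminoacyl-tRNA to the ribosome, at 354, 406 and 397 FPKM in DN-SM, 395, 438 and 571 FPKM in DN, and 387, 216 and 270 FPKM in SHAM (log2 fold change 0.63, SE 0.154, adjusted p = 0.0429). Eef1a2, the form that adult muscle uses, was 5.55 to 7.08 times as abundant as Eef1a1 in the group means and did not pass (log2 fold change 0.26 in DN against SHAM, SE 0.152, adjusted p = 0.340). In DN-SM against SHAM the same list gave 0 higher and 1 lower, Eef2k, the kinase that slows elongation, at 47.9, 49.8 and 50.9 FPKM in DN-SM, against 71.6, 83.7 and 80.5 FPKM in SHAM (log2 fold change -0.66, SE 0.125, adjusted p = 0.0360). With single libraries left out, the call of Eif4g3 was lost without DN replicate 2 or 3, that of Eef1a1 was kept only without SHAM replicate 1, and that of Eef2k only without SHAM replicate 1 or 2.

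Of 67 genes for processing of ribosomal RNA and ribosome assembly, 0 rose and 1 fell in DN against SHAM, where 2.57% of all genes rose and 1.70% fell. It was Dnajc21, a cochaperone of large-subunit maturation, at 6.4, 4.86 and 4.98 FPKM in DN, against 17.1, 22.9 and 10.1 FPKM in SHAM (log2 fold change -1.70, SE 0.277, adjusted p = 0.0114). In DN-SM against SHAM, where 0.425% of all genes fell, 1 of the 67 fell. It was Dhx37, a helicase of small-subunit assembly, at 4.22, 4.21 and 4.39 FPKM in DN-SM, against 8.75, 6.99 and 7.90 FPKM in SHAM (log2 fold change -0.86, SE 0.127, adjusted p = 0.0123). Of 20 genes of RNA polymerase I transcription none passed in any of the 3 comparisons. Of 27 genes of mTOR and S6 kinase signalling, 0 rose and 2 fell in DN against SHAM. They were Rragd, a GTPase that carries amino acid signals to mTOR, at 15.2, 18.5 and 16.4 FPKM in DN, against 25.5, 25.1 and 25.5 FPKM in SHAM (log2 fold change -0.68, SE 0.139, adjusted p = 0.0232), and Sesn1, a sestrin that restrains mTOR, at 9.11, 12.5 and 13.6 FPKM in DN, against 18.3, 18.6 and 18.8 FPKM in SHAM (log2 fold change -0.75, SE 0.172, adjusted p = 0.0345). Of 70 genes of the mitochondrial ribosome, a separate set built into mitochondria, 1 rose and 0 fell in DN against SHAM, Mrpl45, at 37.6, 40.5 and 53.3 FPKM in DN, against 32.0, 26.9 and 29.7 FPKM in SHAM (log2 fold change 0.49, SE 0.113, adjusted p = 0.0345). With single libraries left out, the call of Dnajc21 was lost without DN replicate 3 and that of Dhx37 without any one of the DN-SM libraries. The call of Rragd was lost without SHAM replicate 2 or DN replicate 1 or 3, that of Sesn1 without SHAM replicate 2, any one DN library or DN-SM replicate 2, and that of Mrpl45 was kept only without SHAM replicate 3. In DN-SM against DN, where 1 of all 10129 genes (0.00987%) was called, none of these lists held a called gene. With so few calls over all genes, this does not show that the lists were unchanged. The median log2 fold changes in DN against SHAM were -0.13 for initiation factors, -0.08 for assembly, -0.17 for mTOR signalling and 0.06 for the mitochondrial ribosome.

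Lists written as markers of other cells, or of satellite cells and regenerating muscle, also held called genes in DN against SHAM, where 2.57% of all genes rose. Of 10 endothelial genes 5 rose (and 1 in DN-SM against SHAM, where 0.415% of all genes rose), with a summed FPKM of 190 to 212 in DN-SM, 213 to 280 in DN and 141 to 167 in SHAM. Of 10 Schwann cell genes 4 rose, with a summed FPKM of 93.8 to 199 in DN-SM, 163 to 344 in DN and 76.6 to 85 in SHAM. Of 9 tested genes of satellite cells and regenerating muscle 2 rose, with a summed FPKM of 84.9 to 146 in DN-SM, 121 to 151 in DN and 59.2 to 98.5 in SHAM, and of 6 tested adipocyte genes 1 rose. Genes of leukocytes, fibroblasts, red blood cells and smooth muscle gave 0 calls. No measured marker was at 0 in all libraries. Markers without a matched gene ID were left out of that statement: 8 of 9 adipocyte and 7 of 8 red blood cell genes were measured. Which cells the called genes came from, muscle fibres included, was not measured. The part of these cells in the values of Rpl3 or of the other ribosomal protein genes was not tested.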

How the data were processed

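Messenger RNA of 9 gastrocnemius libraries was sequenced on a BGISEQ-500, per the labels' protocols. The deposited files give per gene the expected count that RSEM estimates, not normalized by the authors, and, per the file headers, the FPKM, scaled by the authors to effective length and library size. The submitters' processing notes name HISAT2, RSEM and GATK and the build rn6; versions, settings and strand are not given in the sources used here. A gene that a file does not list was taken as 0. RefSeq symbols were matched by gene ID (13649 of 13752); 1 further ID matched Rpl37a by accession only and stayed out, and reads of near-identical copies may be split between genes.

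After rounding of the expected counts, edgeR 4.0.16 (R 4.3.3) gave robust two-sided quasi-likelihood tests with TMM factors and filterByExpr (minimum count 10, minimum total 15), leaving 10129 genes. All 9 libraries entered 1 fit with group as the only term; p-values were adjusted over all genes tested (threshold 0.05). DESeq2 1.42.0, limma 3.58.1 (log2 of FPKM plus 1 or 0.1), other scalings and filters, and a loess correction for transcript length (span 0.5) were alternatives. The fit was tested on simulated data. Log2 CPM used a prior count of 2.

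Genes given with every library were, per comparison, up to 4 called genes in each direction with an FPKM of 5 or more or otherwise the 3 smallest p, the 4 most abundant, fixed paralog pairs (Rpl7 and Rpl10 as ranges only), Rplp0, Rplp1, Rplp2, Rpsa and Rps6. Called genes among the 3 smallest p of each pathway list were also given. Of these, Eef2k, Dnajc21, Dhx37, Rragd, Sesn1 and Mrpl45 were given only in the 2 groups compared. Genes low in DN replicate 1 were named after their values were seen. The members and lists were chosen with earlier results of these data known.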

Additional observations from a re-analysis of the deposited data

How the results depend on the processing

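In DN against SHAM the count of ribosomal protein genes called was 1 and became 0 with limma without a filter, with only the 2 groups compared, with the length trend removed (alone or with only the 2 groups, or with DN replicate 1 left out), with only the 2 groups and DN replicate 1 left out, and with the replicate block; without single libraries it was 0 to 2, and it was 0 with any one DN or DN-SM library left out. The median of 0.11 was 0.17 with limma (0.173 with the smaller pseudocount and 0.172 otherwise, with or without a filter), 0.032 with the length trend removed (0.027 with only the 2 groups), -0.009 with DN replicate 1 also left out, and 0.06 to 0.14 without single libraries. In DN-SM against DN the median of -0.07 was -0.17 with limma (-0.17 with or without a filter, -0.171 with the smaller pseudocount) and -0.10 to -0.05 without single libraries, and the count of 0 became 1 (Rps24, log2 fold change 0.42, adjusted p = 0.0423) with the length trend removed and only the 2 groups compared. That fit called 677 of all 9934 genes tested (6.81%). In DN-SM against SHAM the median of 0.03 was -0.038 to 0.067 without single libraries, the lowest without SHAM replicate 1, and the count was 0 under every alternative run. The summed level was 1.70% in DN-SM, 1.92% in DN and 1.71% in SHAM as a share of expected counts, and 7.28%, 7.66% and 7.21% without the 20 most abundant other genes; without single libraries it was 3.97% to 4.13% in DN-SM, 4.40% to 4.64% in DN and 4.10% to 4.32% in SHAM.

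The fits with DN replicate 1 left out together with another change, and the length correction with only the 2 groups, were chosen after seeing the data. Of 42 gene results named, 36 kept their direction. Those that turned in DN against SHAM were Rpl3l (0.018 with upper-quartile factors, 0.001 with TMM factors set without the ribosomal protein genes, 0.07 with limma on log2 FPKM in 3 forms, 0.052 without SHAM replicate 3, 0.045 without DN replicate 2 and 0.037 without DN replicate 3), Rps6 (-0.027 without DN replicate 2, and up to 0.267 without DN replicate 1) and, with the length trend removed and DN replicate 1 left out, Rplp0 (-0.012), Rplp2 (-0.009), Rps2 (-0.026) and Rps27l (-0.025). The replicate block, which treats equal replicate numbers as pairs, called 0 of the ribosomal protein genes in each comparison. Over all genes it called 317 (3.13%) in DN against SHAM, 1 (0.00987%) in DN-SM against DN and 39 (0.385%) in DN-SM against SHAM. Rpl3 had an adjusted p of 0.0502 in DN against SHAM with the block. Correlations between libraries of the same number were -0.05 to 0.11, so the numbers were not taken to pair them. The 8 called genes of the pathway lists each fell short of the threshold under some alternatives. The cause of these shifts was not tested. The totals of 7926445 to 8893843 counts leave Rps4y2, with 4 to 55 counts, the least precise of the genes named.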
